A study of Mus musculus with 15 samples.

Results

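The respiratory chain genes of mouse small intestinal organoids were taken as all genes of the count files whose symbol names a subunit of complexes I to V (symbols starting with Nduf and a letter a, b, c, s or v plus a number, Uqcr, Sdha to Sdhd, Cox4 to Cox8, Atp5, or one of the protein-coding mt- genes), with names holding -ps left out. The rule found 106 of 78298 listed genes, 93 encoded in the nucleus and 13 in the mitochondrial genome. After the filter on low counts 96 of them (83 nuclear, 13 mitochondrial) were among the 17560 genes tested. The symbol rule kept Cox6c2, Ndufa11b, Ndufb4c and Ndufs6b, which are annotated as pseudogenes, and Ndufb4b, annotated as a noncoding RNA. Of these, Cox6c2 and Ndufb4b were tested and enter the counts and medians of the nuclear members.

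The respiratory chain sits in the inner mitochondrial membrane. Complexes I (NADH dehydrogenase) and II (succinate dehydrogenase) feed electrons to ubiquinone, complex III passes them to cytochrome c, complex IV (cytochrome c oxidase) hands them to oxygen, and the proton gradient so built drives complex V, the ATP synthase. Complex II is made by nuclear genes only, whereas the other complexes combine nuclear subunits with a few core subunits made inside the mitochondrion, so that both genomes have to supply parts. In the gut, absorptive enterocytes are known as cells with a high oxidative capacity.

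All 15 libraries were poly(A) RNA of organoids grown from small intestinal crypts of female mice and collected 5 days after seeding, with 3 libraries in each of 5 groups. Each group carried lentiviral transgenes under the L30 promoter and had been selected with antibiotic. Control organoids expressed a V5-tagged Halo protein with a nuclear localization signal (Halo-NLS, with IRES_Puro), the other lines expressed Sox9 fused to Halo or to mEGFP (also with V5 and IRES_Puro), each at an early budding and at a later spheroid stage. The spheroids held a second transgene which the controls and the budding organoids lacked, H2B-mEGFP (IRES_Zeo) in SOX9-Halo_spheroid and H2B-mScarletI (IRES_Neo) in SOX9-mEGFP_spheroid, so morphology, time in culture and the second transduction cannot be told apart. Each line was a single stably transduced culture line, and the methods call the replicates biological without naming separate animals, so p-values measure the spread between samples of 1 line per group.

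Between 28062722 and 40559766 reads per library were assigned to genes. Sox9 stood at 9.09 to 22.9 CPM (the count as a share of the library's counts on the usual CPM scale, normalized by TMM, the trimmed mean of M values) in Halo-NLS and at 193 to 704 CPM in 11 of the 12 SOX9 libraries, whereas SOX9-Halo_budding replicate 1 had 39.8 CPM. All 5 epithelial markers were above 1 CPM in every group, but they did not stay level. In SOX9-Halo_spheroid Vil1, Epcam and Krt8 averaged 118, 460 and 1987 CPM, beside 1410, 992 and 2779 CPM in Halo-NLS. Cdh1 and Krt18 averaged 856 and 1556 CPM there, beside 614 and 520 CPM in Halo-NLS. The summed level of 8 absorptive enterocyte markers was 5240.1 to 10044 CPM in Halo-NLS, 1333 to 6354 CPM in SOX9-mEGFP_budding and 3534 to 7314 CPM in SOX9-Halo_budding, but 208 to 519 CPM in SOX9-mEGFP_spheroid and 2.00 to 5.90 CPM in SOX9-Halo_spheroid. The 4 crypt base stem markers did not move together, since Smoc2 averaged 183 CPM in Halo-NLS, 3.78 CPM in SOX9-mEGFP_spheroid and 10.3 CPM in SOX9-Halo_spheroid, whereas Lgr5 averaged 45.8 CPM in SOX9-mEGFP_spheroid and 9.60 CPM in SOX9-Halo_spheroid, and 33.3 and 39.5 CPM in the budding organoids of these lines. Proliferation markers (4) overlapped in sum between all groups (302 to 891 CPM), but single markers moved in different ways. Mki67 averaged 34.8, 131 and 39.5 CPM in Halo-NLS, SOX9-Halo_budding and SOX9-Halo_spheroid, and Mcm5 averaged 167, 103 and 223 CPM. The enterocyte markers were thus lower at the spheroid stage, where respiratory chain genes also fell, but the sizes were not ordered alike. Marker sums were lowest in SOX9-Halo_spheroid. The summed nuclear-encoded members were lowest in SOX9-mEGFP_spheroid, at 47.6% of the Halo-NLS mean beside 53.6% in SOX9-Halo_spheroid. The part of the enterocyte markers in the respiratory chain results was not tested. Because whole organoids were sequenced, fewer cells of a type and less RNA per cell cannot be told apart. Markers of mesenchyme, endothelium, and brown fat or muscle were at most 1.5 CPM in sum in any library, and 4 immune markers reached 8.07 CPM.

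The first question was whether the nuclear-encoded members as a set differed between SOX9 and control organoids. Their summed level was 29558, 28797 and 36766 CPM in the Halo-NLS replicates, 23172, 24145 and 18661 CPM in SOX9-mEGFP_budding, and 23303, 23043 and 18633 CPM in SOX9-Halo_budding. It was 17132, 15074 and 13104 CPM in SOX9-mEGFP_spheroid and 17764, 17329.7 and 15861 CPM in SOX9-Halo_spheroid. The controls were highest, the budding organoids came next at 69.4% (SOX9-mEGFP) and 68.3% (SOX9-Halo) of the control mean, and the spheroids were lowest at 47.6% and 53.6%, with no overlap between controls, budding organoids and spheroids. For each of these steps the exact two-sided permutation test over libraries gave p = 0.1, the smallest value that 3 against 3 libraries allow (20 splits). Without TMM, as a share of gene-assigned reads, the nuclear members averaged 2.73 ± 0.35% in Halo-NLS (SD, n = 3). They averaged 2.21 ± 0.14% in SOX9-mEGFP_budding and 2.28 ± 0.15% in SOX9-Halo_budding. Shares in SOX9-mEGFP_spheroid and SOX9-Halo_spheroid were 1.56 ± 0.22% and 1.78 ± 0.06%. All these falls from the controls were smaller than with TMM.

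**Figure D1:**
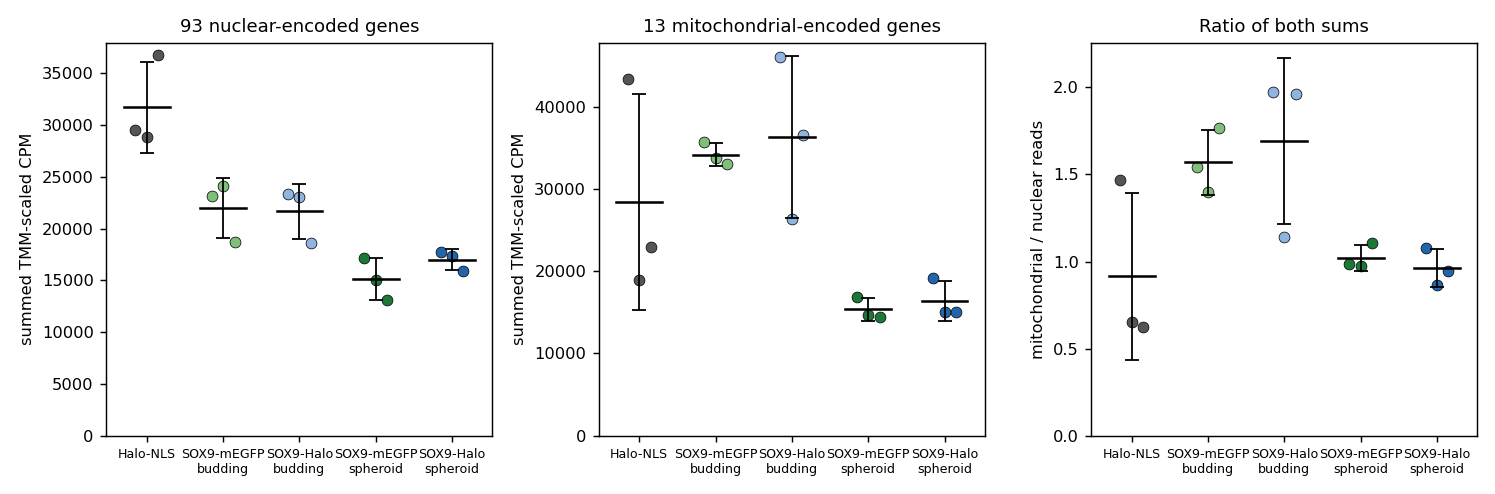
Summed level of the 93 nuclear-encoded (left) and 13 mitochondrial-encoded (middle) respiratory chain genes in TMM-scaled CPM, and their ratio (right), for each library (points) with the mean (line) and SD (bars) of 3 libraries per group. Nuclear sums step down from Halo-NLS through budding organoids to spheroids, while mitochondrial sums are lower only in the spheroids.

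Gene by gene, a gene was called with the study's thresholds when its mean normalized count was 10 or more, its level changed 2-fold or more and its adjusted p did not exceed 0.01, the p being that of the quasi-likelihood test of edgeR, adjusted after Benjamini and Hochberg over all tested genes. Against Halo-NLS, 31 of the 96 tested members were lower and 0 were higher in SOX9-Halo_spheroid, where 15.3% of all tested genes were called lower and 13.6% higher. In SOX9-mEGFP_spheroid 45 members were lower and 1 was higher, against backgrounds of 12.1% and 15.3%. Without a minimum fold, at an adjusted p of at most 0.05, 75 members were lower and 0 higher in SOX9-Halo_spheroid (background 25.8% lower, 22.7% higher) and 83 lower and 1 higher in SOX9-mEGFP_spheroid (background 24.0% lower, 25.8% higher). No member was higher in SOX9-Halo_spheroid at an unadjusted p under 0.05 either (0 of 96), and DESeq2 called 0. Both spheroid comparisons share the Halo-NLS libraries.

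The decrease reached all 5 complexes. Median log2 fold changes of the nuclear members were -0.90 in SOX9-Halo_spheroid and -1.01 in SOX9-mEGFP_spheroid, beside medians of -0.01 and 0.03 over all tested genes. By complex, the summed nuclear level in SOX9-Halo_spheroid was 52.4% of Halo-NLS for complex I, 42.8% for II, 47.5% for III, 58.3% for IV and 55.8% for V. In SOX9-mEGFP_spheroid it was 48.8%, 42.7%, 44.3%, 46.8% and 49.2% in the same order. Complex II was thus the lowest in both lines, a ranking that was not tested.

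**Figure D2:**
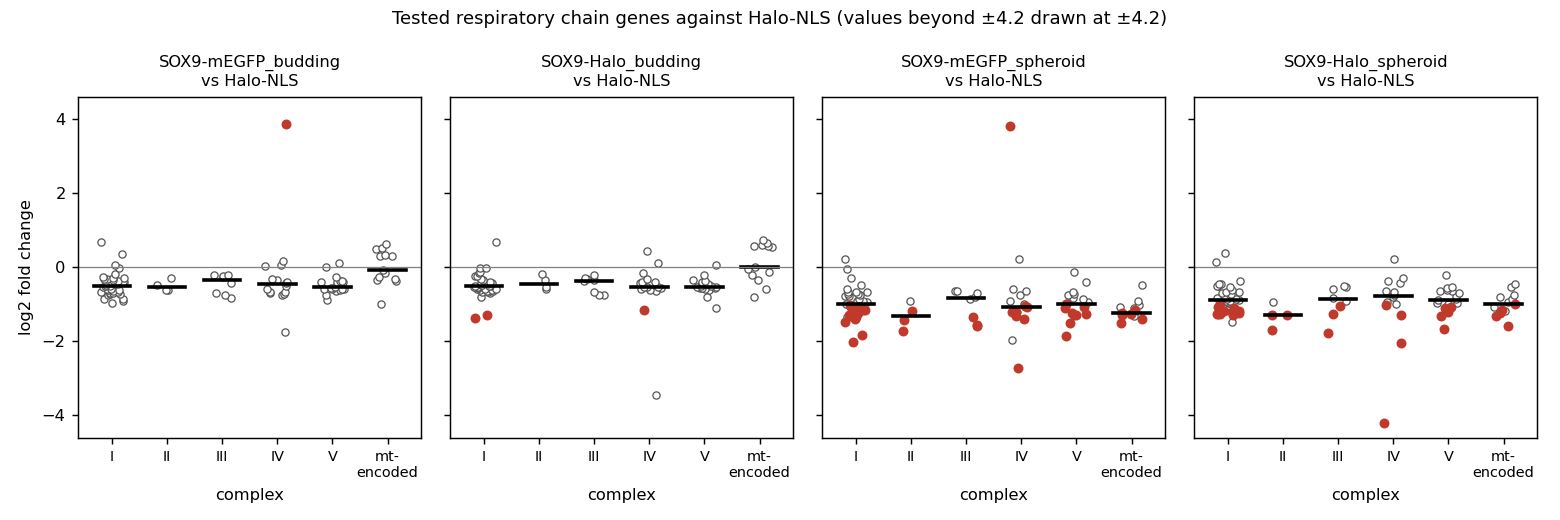
Log2 fold change against Halo-NLS of each tested gene by complex (nuclear-encoded) and for the mitochondrial-encoded genes, with medians as black lines and called genes in red. Nearly all points lie below 0 in both spheroid panels, and the isolated red point near 3.8 in the SOX9-mEGFP panels is Cox6b2.

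Complex I, the entry point for NADH, had 11 of 37 tested nuclear members lower in SOX9-Halo_spheroid and 16 of 37 lower in SOX9-mEGFP_spheroid. Ndufs1, the largest core subunit, was not among them, a gene picked out after its values were seen. It was at 136, 53.2 and 49.5 CPM in Halo-NLS and at 71.1 to 108 CPM in the 6 spheroid libraries, so that control replicate 1 alone stood above the spheroids and the other two below them.

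Of the succinate dehydrogenase subunits, which oxidise succinate in the citric acid cycle and pass the electrons on, 3 of 4 were called lower in each spheroid group. Sdhb (ENSMUSG00000009863, chromosome 4, 140688502 to 140709380, GRCm39), the iron-sulfur subunit, fell most. It was at 467, 454 and 550.2 CPM in Halo-NLS, 359, 388 and 221 CPM in SOX9-mEGFP_budding, 367, 380.5 and 258 CPM in SOX9-Halo_budding, 177, 157 and 112 CPM in SOX9-mEGFP_spheroid, and 161, 158 and 138 CPM in SOX9-Halo_spheroid. Spheroid levels were below those of every other library, with log2 fold changes against Halo-NLS of -1.72 ± 0.24 (SE, as for all fold changes; SOX9-mEGFP, edgeR adjusted p = 5.1e-05) and -1.69 ± 0.24 (SOX9-Halo, edgeR adjusted p = 4.2e-05). The membrane anchors Sdhc (-1.18 and -1.30) and Sdhd (-1.44 and -1.28) were also called in both lines. Sdha, the flavoprotein that binds succinate, had -0.92 and -0.94 and missed the fold threshold.

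In complex III, the cytochrome bc1 complex, 3 of 8 nuclear subunits were lower in each spheroid group, Uqcrq, Uqcrc1 and Uqcr11. Uqcrq (ENSMUSG00000044894, chromosome 11, 53318749 to 53322047, GRCm39), a small subunit close to the ubiquinone-binding site, was at 662, 633 and 919.8 CPM in Halo-NLS, 272, 259 and 208 CPM in SOX9-mEGFP_spheroid and 238, 216 and 191 CPM in SOX9-Halo_spheroid. The groups did not overlap, and the log2 fold changes were -1.58 ± 0.23 (edgeR adjusted p = 7.7e-05) and -1.78 ± 0.24 (edgeR adjusted p = 1.9e-05). The core subunit Uqcrc1 had log2 fold changes of -1.57 ± 0.19 and -1.26 ± 0.18 in SOX9-mEGFP_spheroid and SOX9-Halo_spheroid.

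Complex V carried the most abundant nuclear members. Atp5f1a, the catalytic-core alpha subunit, was at 2868, 3749.7 and 4179 CPM in Halo-NLS, 1959, 1681 and 1737 CPM in SOX9-mEGFP_spheroid and 2081, 2006 and 1754 CPM in SOX9-Halo_spheroid. These groups did not overlap, and its log2 fold change was called in SOX9-mEGFP_spheroid (-1.01 ± 0.20, edgeR adjusted p = 0.00089) but stayed short of the fold threshold in SOX9-Halo_spheroid (-0.89 ± 0.20). Atp5f1b, the beta subunit that forms ATP, had -1.10 ± 0.18 (called) and -0.61 ± 0.18 (not called). Of 18 tested subunits, 9 were lower in SOX9-mEGFP_spheroid and 5 in SOX9-Halo_spheroid.

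Atp5if1 (ENSMUSG00000054428, chromosome 4, 132257215 to 132262823, GRCm39), the inhibitor that keeps the ATP synthase from running backwards, belonged to the same decrease. Its levels were 167, 117 and 176 CPM in Halo-NLS, 122, 127 and 99.9 CPM in SOX9-mEGFP_budding, 117, 102 and 92.4 CPM in SOX9-Halo_budding, 85.7, 81.4 and 52.7 CPM in SOX9-mEGFP_spheroid, and 57.9, 46.2 and 41.4 CPM in SOX9-Halo_spheroid. Controls and spheroids did not overlap, with log2 fold changes of -1.06 ± 0.23 (SOX9-mEGFP, edgeR adjusted p = 0.0015) and -1.66 ± 0.23 (SOX9-Halo, edgeR adjusted p = 2.9e-05). Exons of other genes cover 34.6% of its exonic bases, and overlapping reads were not counted for either gene.

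The size of these decreases rested in part on how libraries were scaled. With library sizes alone in place of TMM, the median of all tested genes against Halo-NLS moved to between 0.27 and 0.31 in the 4 SOX9 groups, and 11 members were called lower in SOX9-Halo_spheroid and 22 in SOX9-mEGFP_spheroid. The share of all tested genes called lower under this scaling was not counted. With the trend of fold change on GC content removed, a check chosen after the data were seen, the median nuclear member was at -0.86 and -1.04. The members called lower then numbered 35 and 51, beside 14.7% and 10.4% of all tested genes. With the trend on exon length (all annotated exons of a gene merged) removed as well, the medians were -0.54 and -0.85. The members called lower were then 21 and 27, beside 14.4% and 9.90% of all tested genes.

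At the budding stage the nuclear members lay closer to the controls. Median log2 fold changes of the nuclear members were -0.52 in SOX9-Halo_budding and -0.50 in SOX9-mEGFP_budding, beside 0.01 and 0.03 over all genes, and 79 and 74 of the 83 were below 0. Few single genes passed the thresholds. In SOX9-Halo_budding 3 members were called lower and 0 higher (background 1.26% lower, 2.49% higher; 2 members were higher at an unadjusted p under 0.05, and DESeq2 called 0), and in SOX9-mEGFP_budding 0 were lower and 1 higher (background 0.763% lower, 1.99% higher; 46 were lower at an unadjusted p under 0.05, and DESeq2 called 0 lower). At an adjusted p of at most 0.05 with no minimum fold, 21 members were lower and 0 higher in SOX9-Halo_budding, where the background was 7.59% lower and 11.3% higher, and 19 were lower and 1 higher in SOX9-mEGFP_budding, where it was 5.98% and 9.05%.

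The 3 genes called in SOX9-Halo_budding were the complex I core subunits Ndufs8 (-1.36 ± 0.20) and Ndufv1 (-1.29 ± 0.19) and the complex IV subunit Cox8a (-1.15 ± 0.16), with edgeR adjusted p-values of 0.00098, 0.0011 and 0.00069. All 3 lie on chromosome 19, whose other tested genes also had a median of -0.62 in this comparison, as set out with the differences between lines. None of the 3 was called when only the libraries of the groups compared were fitted, with edgeR adjusted p-values of 0.047 to 0.0488. Leaving out SOX9-Halo_budding replicate 1, the library with little Sox9, 3 members were again called lower. Without Halo-NLS replicate 1, the control with the highest mitochondrial sum, 3 members were called higher in SOX9-Halo_budding, and 2 lower and 2 higher in SOX9-mEGFP_budding.

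Against the nuclear genes, the mitochondrial-encoded ones need a remark on how well they can be counted. Only reads with a single alignment were kept, and a nuclear copy of the mitochondrial genome on chromosome 1 (24650616 to 24655269, GRCm39) matches positions 6390 to 11042 of the mitochondrial sequence with 99.936% identity over 4654 bases. Every stretch of 150 bases in mt-Co2, mt-Atp8, mt-Atp6, mt-Co3 and mt-Nd4l also occurs elsewhere in the genome, as do 98.5% of such stretches in mt-Nd3, 59.2% in mt-Nd4 and 23.6% in mt-Co1, but 0 in mt-Nd1, mt-Nd2, mt-Nd5, mt-Nd6 and mt-Cytb. Less similar copies cover mt-Nd6, mt-Cytb and part of mt-Nd5 on chromosome 4 (93.009% identity), part of mt-Nd5 on chromosome 13 (95.183%) and part of mt-Nd2 on chromosome 2 (97.362%). The following 100 bases of mt-Co2, shown because a read from them cannot be assigned to either origin, differ at 0 positions from their nuclear copy (chrM:7305-7404, plus strand, and chr1:24654255-24654354, minus strand, GRCm39).
mt-Co2: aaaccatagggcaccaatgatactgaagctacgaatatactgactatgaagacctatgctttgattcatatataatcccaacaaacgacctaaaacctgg
nuclear copy of mt-Co2: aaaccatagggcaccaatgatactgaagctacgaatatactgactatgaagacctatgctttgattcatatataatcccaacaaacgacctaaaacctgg

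The counts followed this map. mt-Co1 was at 6174 to 21909.7 CPM over the 15 libraries, whereas its partners in the catalytic core of complex IV were at 8.85 to 36.3 CPM (mt-Co2) and 7.85 to 33.3 CPM (mt-Co3), and mt-Nd4l had 3 to 43 counts per library. Levels between mitochondrial genes therefore cannot be compared. mt-Nd6 lies on the other strand than its neighbours, and reads were counted without strand.

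No fall of the mitochondrial-encoded genes was called in the budding organoids. Their summed level was 43332, 18863 and 22880.0 CPM in Halo-NLS, 35732, 33722 and 33011 CPM in SOX9-mEGFP_budding and 46032, 26314 and 36525 CPM in SOX9-Halo_budding. In the spheroids it was 16909, 14645 and 14482 CPM (SOX9-mEGFP) and 19174, 14994 and 15034 CPM (SOX9-Halo). Spheroids lay below all budding libraries and overlapped with the controls only in SOX9-Halo_spheroid, where replicate 1 exceeded Halo-NLS replicate 2, while Halo-NLS replicate 1 stood far above the other two controls. The spread among the controls was thus wide (mean 28359 ± 13122 CPM, SD, n = 3).

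Against Halo-NLS, 0 of the 13 genes were called in either direction in SOX9-Halo_budding or SOX9-mEGFP_budding by edgeR, with 1 lower and 1 higher in the first and 1 lower and 0 higher in the second at an unadjusted p under 0.05. Their median log2 fold changes were 0.01 and -0.08. Over the 5 genes without an exact copy of any 150 bases the budding medians were 0.54 and 0.30, with 0 of them called. For these 5 the spheroid medians were -1.17 (SOX9-Halo) and -1.26 (SOX9-mEGFP). The values that follow are again over all 13. In SOX9-Halo_spheroid 5 of 13 were lower, with a median of -1.0, and in SOX9-mEGFP_spheroid 6 of 13 were lower, with a median of -1.24. Without Halo-NLS replicate 1 these medians became -0.54 and -0.81, and those of the budding organoids 0.45 (SOX9-Halo) and 0.37 (SOX9-mEGFP), so this control library set much of the size of every mitochondrial comparison with Halo-NLS. With the trend on GC content removed, the spheroid medians were -1.22 (SOX9-Halo) and -1.67 (SOX9-mEGFP), and with GC content and length removed -0.10 and -0.80.

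Comparisons within a line do not use the control levels, although the controls enter the common estimate of the spread. Among the 5 genes without an exact copy of any 150 bases, mt-Nd5 (ENSMUSG00000064367, chromosome M, 11742 to 13565, GRCm39), a core subunit in the proton-pumping arm of complex I, was at 1898, 1793 and 2537 CPM in SOX9-mEGFP_budding and 503, 668 and 842 CPM in SOX9-mEGFP_spheroid. In the SOX9-Halo line it was at 2729.8, 1977 and 2658 CPM in budding organoids and 553, 747 and 685 CPM in spheroids. Budding and spheroid libraries did not overlap in either line, and the log2 fold changes were -1.63 ± 0.32 (edgeR adjusted p = 0.0012) and -1.89 ± 0.32 (edgeR adjusted p = 0.00022).

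mt-Nd1 (ENSMUSG00000064341, chromosome M, 2751 to 3707, GRCm39), at the joint of both arms of complex I, had 5293, 6627 and 5939.6 CPM against 3138, 3074 and 2238 CPM in the SOX9-mEGFP line, and 7495, 5047 and 6668 CPM against 3013, 3019.7 and 2955 CPM in the SOX9-Halo line. These groups did not overlap either, with log2 fold changes of -1.08 ± 0.26 (edgeR adjusted p = 0.0055) and -1.10 ± 0.26 (edgeR adjusted p = 0.0033). mt-Nd6 fell by 1.78 ± 0.38 and 1.71 ± 0.38 on the log2 scale. For mt-Cytb, the only mitochondrial subunit of complex III, and for mt-Co1 the changes of -1.22 and -1.03, and of -1.10 and -1.13, did not reach the threshold on adjusted p.

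**Figure D3:**
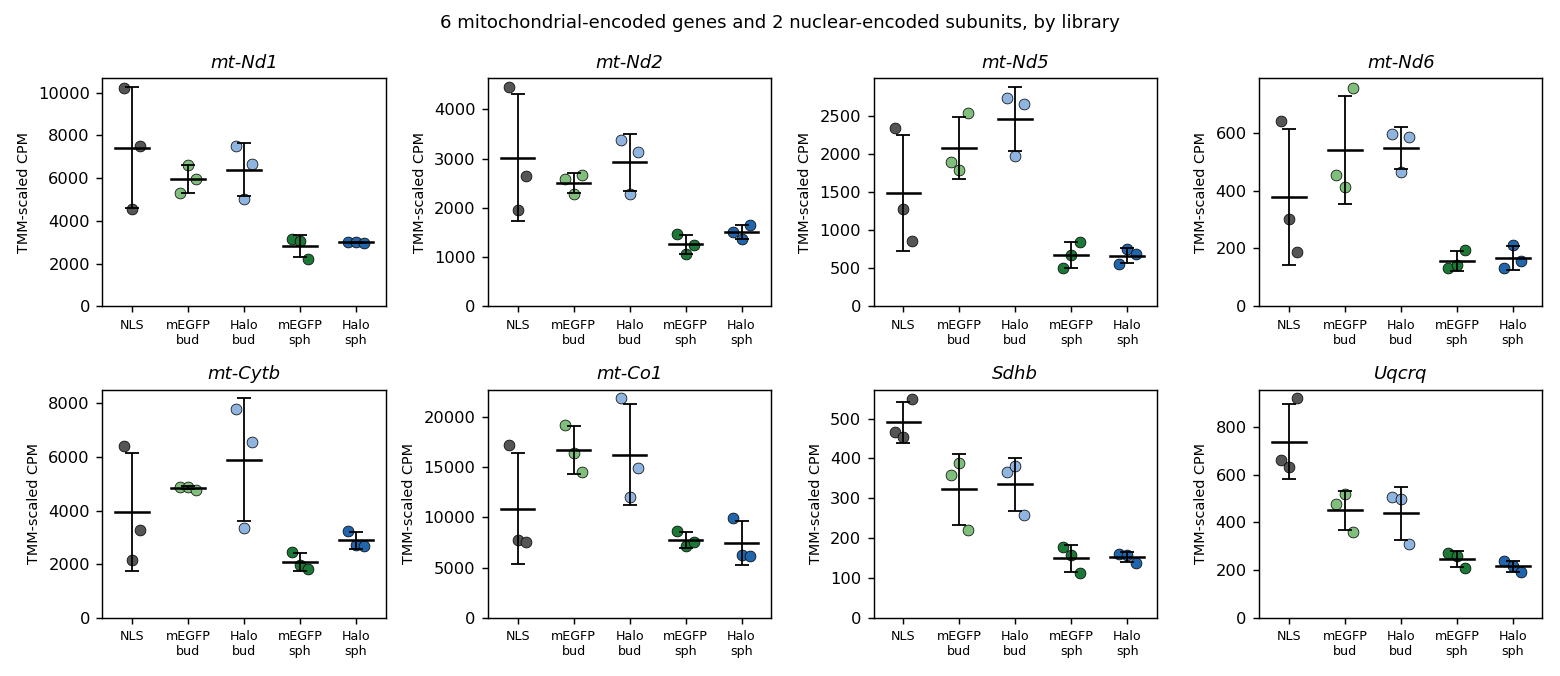
TMM-scaled CPM of 6 mitochondrial-encoded genes (the 5 without an exact nuclear copy of any 150 bases, and mt-Co1) and of the nuclear-encoded Sdhb and Uqcrq in each library (points), with mean (line) and SD (bars), n = 3. For the mitochondrial genes the budding organoids overlap with Halo-NLS and the spheroids have the lowest means, whereas Sdhb and Uqcrq are also lower in budding organoids than in controls.

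Of the 96 tested members, 9 were called lower and 0 higher from budding to spheroid in the SOX9-Halo line (background 14.7% lower, 10.5% higher). Likewise 9 and 0 were called in the SOX9-mEGFP line (background 7.88% lower, 8.55% higher). The share called lower was thus below background in the SOX9-Halo line and close to it in the SOX9-mEGFP line. At an unadjusted p under 0.05, 2 and 0 members were higher, and DESeq2 called 0 higher in both. At an adjusted p of at most 0.05 with no minimum fold, 27 were lower and 2 higher in the first (background 23.0% and 18.1%) and 41 lower and 0 higher in the second (background 13.8% and 14.5%). The called genes were mostly mitochondrial, 5 of 9 in the SOX9-Halo line and 6 of 9 in the SOX9-mEGFP line. Of the 83 tested nuclear members 4 and 3 were called, shares below the background in both lines. Nuclear members called in the SOX9-Halo line were Cox7a1, Sdhb, Atp5if1 and Uqcrq, and in the SOX9-mEGFP line Cox7a1, Sdhb and Ndufv1. With replicate number as a block, fitted because same-numbered libraries of the SOX9-Halo line correlated, mt-Nd4l was no longer called there (edgeR adjusted p = 0.0104).

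Without SOX9-Halo_budding replicate 1 the SOX9-Halo count was 4, and mt-Nd1, mt-Nd4, mt-Nd4l, Cox7a1 and Uqcrq were no longer called, and it was 5 without SOX9-Halo_spheroid replicate 1 or replicate 2. The SOX9-mEGFP count was 5 without SOX9-mEGFP_budding replicate 2, and 4 without SOX9-mEGFP_spheroid replicate 2 or replicate 3. A single member (1) was called higher in the SOX9-Halo line without SOX9-Halo_budding replicate 3 or SOX9-Halo_spheroid replicate 1. The mitochondrial genes are poor in GC and short, and other genes of these kinds were set beside them. Their GC content was 31.9% to 41.1%, and the 1377 other tested genes with as little GC had medians of -0.33 (SOX9-Halo) and 0.00 (SOX9-mEGFP) between budding and spheroid, beside medians of -1.03 and -1.15 for the mitochondrial genes. The 700 other protein-coding genes no longer than the longest of them had medians of -0.11 and -0.23. Removing the trend on GC content left medians of -0.77 and -1.12, with 7 and 9 members called lower (background 15.4% and 8.39% of all tested genes). Removing the trend on GC content and length left -0.06 and -0.65, with 1 and 2 members called lower (background 15.0% and 8.07%). Within a line the mitochondrial decrease was thus not called under this last correction.

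The ratio of mitochondrial to nuclear reads of the respiratory chain compared both genomes inside a library, independent of scaling. It was 1.47, 0.655 and 0.622 in Halo-NLS, 1.54, 1.4 and 1.77 in SOX9-mEGFP_budding, 1.98, 1.14 and 1.96 in SOX9-Halo_budding, 0.987, 0.972 and 1.11 in SOX9-mEGFP_spheroid, and 1.08, 0.865 and 0.948 in SOX9-Halo_spheroid. Budding organoids had the highest ratios and did not overlap with the spheroids of their line, whose means were lower by 34.9% (SOX9-mEGFP) and 43.0% (SOX9-Halo). The exact two-sided permutation p was 0.1 in both, the smallest possible with 3 against 3. With the 5 genes outside the copy on chromosome 1 alone the means were lower by 37.0% and 43.3%. Against Halo-NLS the ratios of both spheroid groups overlapped with the controls (exact permutation p = 0.9 for SOX9-mEGFP and 1 for SOX9-Halo), as did those of the budding organoids (0.2 in both). This overlap rested on Halo-NLS replicate 1 (1.47), since the other controls (0.655 and 0.622) lay below every SOX9 library.

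Several subunits of complex IV exist as a general form and as a form restricted to tissues such as heart, muscle or testis. The general forms made up nearly all of the signal, and they followed the common decrease. Levels per kilobase of exon used all annotated exons of a gene merged. Such a length can exceed that of the expressed transcript, so different genes compare only roughly. On this scale Cox6a1 averaged 1396 ± 234 CPM in Halo-NLS, 608 ± 78.5 CPM in SOX9-mEGFP_spheroid and 703 ± 39.7 CPM in SOX9-Halo_spheroid (SD, n = 3). Its heart and muscle form Cox6a2 averaged 3.19 ± 2.16 CPM per kilobase in Halo-NLS. Cox4i2, Cox7b2, Cox8b, Cox8c and Ndufa4l2 had at most 4 counts in any library and were not tested.

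Cox7a1 (ENSMUSG00000074218, chromosome 7, 29883569 to 29885503, GRCm39), the heart and muscle form of subunit VIIa, was low everywhere but fell most among the called genes with counts above the floor. It was at 4.44, 4.78 and 4.04 CPM in Halo-NLS, 5.53, 6.28 and 1.92 CPM in SOX9-mEGFP_budding, 4.17, 5.53 and 2.18 CPM in SOX9-Halo_budding, 1.14, 0.596 and 0.255 CPM in SOX9-mEGFP_spheroid, and 1.09, 1.32 and 0.804 CPM in SOX9-Halo_spheroid. All spheroid libraries were below all others. Against Halo-NLS the log2 fold changes were -2.72 ± 0.53 (SOX9-mEGFP_spheroid, edgeR adjusted p = 0.00073) and -2.04 ± 0.51 (SOX9-Halo_spheroid, edgeR adjusted p = 0.0040), and 0.05 ± 0.48 and -0.16 ± 0.48 in the respective budding organoids. The general form Cox7a2 had -0.91 ± 0.24 and -0.80 ± 0.24 in the spheroids.

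Cox6a2 (ENSMUSG00000030785, chromosome 7, 127804607 to 127805559, GRCm39) was at 2.88, 3.18 and 0.486 CPM in Halo-NLS, 1.23, 0.495 and 0.255 CPM in SOX9-mEGFP_budding, 0.213, 0.377 and 0 CPM in SOX9-Halo_budding, 0.317, 0.864 and 0.482 CPM in SOX9-mEGFP_spheroid, and 0.106, 0 and 0.0268 CPM in SOX9-Halo_spheroid. The last group had at most 3 counts per library and lay below every control, at least 24.2-fold lower when set to a floor of 3 counts per library (edgeR adjusted p = 0.00066). Setting Cox6a2 to this bound leaves the medians over members as given. Halo-NLS replicate 3 lay within the range of the SOX9-mEGFP libraries, and in neither SOX9-mEGFP group was Cox6a2 called against Halo-NLS.

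Cox6b2 (ENSMUSG00000051811, chromosome 7, 4754789 to 4756093, GRCm39), the testis form of subunit VIb, was the only member called higher than in Halo-NLS. The gene passed the expression filter only through the SOX9-mEGFP libraries, so its call as higher in that line was not independent of the filter. It was at 1.56, 1.21 and 1.72 CPM in SOX9-mEGFP_budding and 1.37, 1.19 and 1.70 CPM in SOX9-mEGFP_spheroid. In Halo-NLS it was at 0.0778, 0.0342 and 0.187 CPM (1 to 5 counts per library), in SOX9-Halo_budding at 0.189, 0.174 and 0.0290 CPM and in SOX9-Halo_spheroid at 0.0353, 0.0845 and 0.0268 CPM. All 6 libraries of the SOX9-mEGFP line were above all 9 others, with log2 fold changes against Halo-NLS of 3.87 ± 0.54 (budding, edgeR adjusted p = 0.00058) and 3.8 ± 0.54 (spheroid, edgeR adjusted p = 5.6e-05). Even there the level per kilobase was 1.34 and 1.28 CPM, beside 193 and 144 CPM per kilobase for the general form Cox6b1. Brown fat and muscle markers summed to at most 0.162 CPM in every library.

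**Figure D4:**
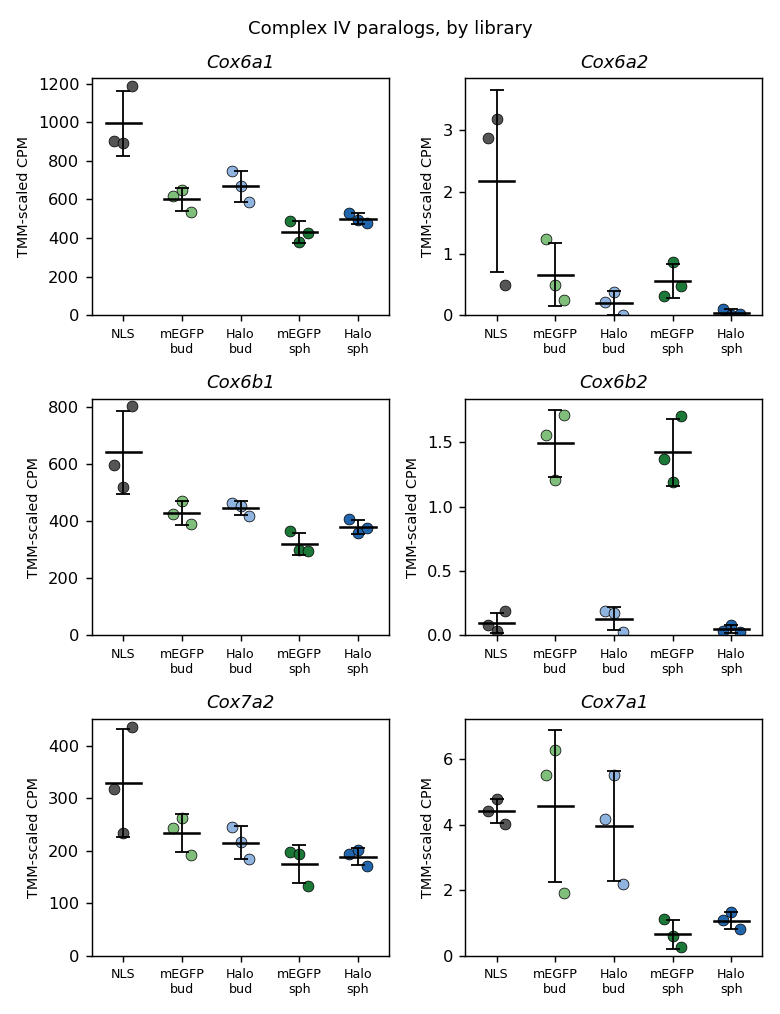
TMM-scaled CPM of 3 general forms (left) and of the matching tissue-restricted forms (right) of complex IV subunits in each library (points), with mean (line) and SD (bars), n = 3. Cox6b2 is raised only in the SOX9-mEGFP line, Cox7a1 is lower in the spheroids of both lines, and the right-hand axes span a few CPM where those on the left reach 436 CPM or more.

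The lines were also compared at the same stage. Comparing SOX9-Halo_spheroid with SOX9-mEGFP_spheroid, 1 member was lower (Cox6b2, at least 15.8-fold with a floor of 3 counts per library) and 1 higher (Ndufb8), against backgrounds of 9.58% and 3.59%. At an adjusted p of at most 0.05 with no minimum fold, 3 were lower and 7 higher, against 15.8% and 8.32%. Comparing the budding organoids, 1 was lower (Cox6b2 again, -3.45 ± 0.50, edgeR adjusted p = 0.0019) and 0 higher, against backgrounds of 0.165% and 0.290%. No member was higher there at an unadjusted p under 0.05 (0), nor by DESeq2 (0). Fitted on the budding libraries alone, Cox6b2 had an edgeR adjusted p of 0.0553. As set out above, Cox6b2 passed the expression filter only through the SOX9-mEGFP libraries.

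Whether the step from budding to spheroid differed between lines was tested as an interaction, SOX9-Halo minus SOX9-mEGFP. Of the 96 members 0 had a lower and 3 a higher change in the SOX9-Halo line, against 5.58% and 1.81% of all tested genes, and 0 had a lower one at an unadjusted p under 0.05 or by DESeq2. The 3 were Ndufb8, Cox8a and Ndufv1, all on chromosome 19. Ndufb8 (ENSMUSG00000025204, chromosome 19, 44537011 to 44543939, GRCm39), an accessory subunit of complex I whose protein is often used as a marker of assembled complex I, was at 30.2, 26.0 and 23.4 CPM in Halo-NLS, 15.8, 23.9 and 26.9 CPM in SOX9-mEGFP_budding and 15.6, 12.2 and 9.90 CPM in SOX9-mEGFP_spheroid. In the SOX9-Halo line it was at 14.4, 15.0 and 16.1 CPM in budding organoids and 26.1, 33.1 and 28.9 CPM in spheroids, so that the groups of both lines did not overlap but were ordered oppositely. The changes within the lines were -0.82 ± 0.23 (SOX9-mEGFP) and 0.95 ± 0.23 (SOX9-Halo), neither called, and the interaction was 1.78 ± 0.33 (edgeR adjusted p = 0.0018).

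Cox8a (ENSMUSG00000035885, chromosome 19, 7192515 to 7194997, GRCm39), a complex IV subunit, was at 1143, 1102 and 1217 CPM in Halo-NLS, 723, 699 and 702 CPM in SOX9-mEGFP_budding, 479, 373 and 453 CPM in SOX9-mEGFP_spheroid, 519.8, 571 and 472 CPM in SOX9-Halo_budding, and 745, 656 and 680.4 CPM in SOX9-Halo_spheroid. Budding and spheroid libraries did not overlap in either line, with log2 fold changes of -0.70 ± 0.16 (SOX9-mEGFP) and 0.41 ± 0.16 (SOX9-Halo) that were not called and an interaction of 1.11 ± 0.22 (edgeR adjusted p = 0.0029). Ndufv1 (ENSMUSG00000037916, chromosome 19, 4057384 to 4062814, GRCm39), the flavin-binding subunit that accepts electrons from NADH, was at 289, 340.4 and 253 CPM in SOX9-Halo_budding and 293, 349 and 279.9 CPM in SOX9-Halo_spheroid, which overlapped. In the SOX9-mEGFP line it was at 367, 424 and 347 CPM and then 203, 178 and 152 CPM, and the interaction was 1.16 ± 0.27 (edgeR adjusted p = 0.0091). Without SOX9-mEGFP_spheroid replicate 2 only 1 of the 3 interactions was called, that of Ndufb8.

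The remaining genes of chromosome 19 moved in the same direction. Over 650 other tested genes of this chromosome the median interaction was 0.88, the median against Halo-NLS was -0.77 in SOX9-mEGFP_spheroid, -0.62 in SOX9-Halo_budding, -0.32 in SOX9-mEGFP_budding and -0.05 in SOX9-Halo_spheroid, and the 6 members on it had a median interaction of 1.04. Chromosomes 8, 15 and 18 were shifted too. On chromosome 18 the 463 other genes had a median of -0.61 between the spheroids of both lines, and its 2 members were at -0.53 and 0.12. On chromosome 8 the 969 other genes had a median of 0.47 in the same comparison, and the 3 members Cox4i1, Ndufb7 and Ndufa13 had 0.84, 0.84 and 0.75, none of them called. On chromosome 15 the 737 other genes had a median of -0.49 between the budding organoids of both lines, and the 4 members there (Ndufa6, Ndufb9, Atp5mc2 and Cox6c) ran from -0.68 to -0.43. The genes of chromosomes 8, 15 and 18 were picked out after their values were seen. Gene dosage was not measured, and its part in these results was not tested.

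**Figure D5:**
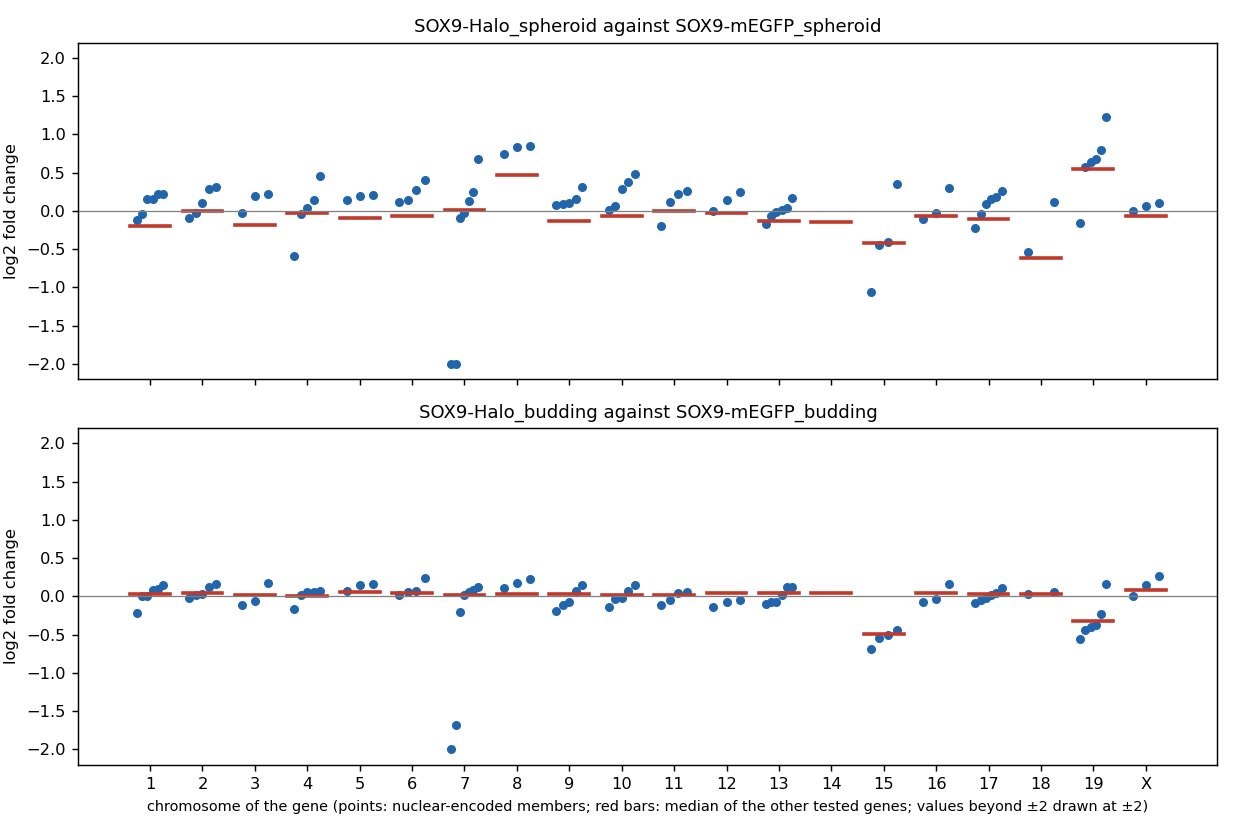
Log2 fold change between the SOX9-Halo and SOX9-mEGFP lines for spheroids (top) and budding organoids (bottom), by chromosome, with points for nuclear-encoded respiratory chain genes and red bars for the median of the other tested genes. Members on chromosomes 8, 15 and 19 lie near the shifted medians of their chromosomes, with exceptions on 15, 19 and 1 further shifted chromosome, and the lowest points on chromosome 7 are Cox6a2 and Cox6b2, with values beyond 2 in either direction drawn at 2.

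Because many nuclear members moved together, their promoters were searched for the letters of known binding motifs. RefSeq promoters (250 bases before to 50 after the start, GRCm38.p6) were matched for 69 members. A gene counted once, with a match in any of its promoters. The NRF1 motif, a palindrome whose letters are the first run of capitals in the Cox6a1 sequence, was found for 7.25% of these members and for 1.07% of all 27025 genes with promoters. The ETS motif CCGGAAG (or CTTCCGG), bound by GABPA among others, was found for 23.2% and 9.93%. AAGGTCA (or TGACCTT), the half-site of estrogen-related receptors, was in 11.6% and 5.38%, AAGATGGCG (or CGCCATCTT) of YY1 in 10.1% and 1.64%, and AACAAT (or ATTGTT), a SOX core, in 8.70% and 12.2%. None of these motifs contains another, and a match describes the letters only. The 180 bases before the start are shown for Cox6a1, Sdhd and Atp5mc2, chosen as members described here with an NRF1 or ETS match, with the letters of NRF1 and ETS matches in capitals (the ERR match of Sdhd lies outside the stretch shown).
Cox6a1 (chr5:115348959-115349138, minus strand): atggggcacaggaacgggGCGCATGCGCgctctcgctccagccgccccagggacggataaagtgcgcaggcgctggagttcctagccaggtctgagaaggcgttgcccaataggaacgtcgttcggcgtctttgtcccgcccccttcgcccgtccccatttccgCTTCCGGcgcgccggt
Sdhd (chr9:50603850-50604029, minus strand): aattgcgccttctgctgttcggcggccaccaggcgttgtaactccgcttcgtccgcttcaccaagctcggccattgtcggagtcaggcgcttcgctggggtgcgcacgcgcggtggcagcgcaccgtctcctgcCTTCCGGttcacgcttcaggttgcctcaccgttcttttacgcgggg
Atp5mc2 (chr15:102671048-102671227, minus strand): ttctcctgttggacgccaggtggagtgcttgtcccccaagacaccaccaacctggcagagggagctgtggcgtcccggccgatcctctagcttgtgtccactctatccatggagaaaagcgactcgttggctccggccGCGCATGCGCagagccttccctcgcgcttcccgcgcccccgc

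Sdhd was called lower in both spheroid groups, as described with complex II. Cox6a1 was called lower in SOX9-mEGFP_spheroid (-1.20 ± 0.18) and just missed the fold threshold in SOX9-Halo_spheroid (-0.99 ± 0.18). Atp5mc2, 1 of 3 genes for subunit c of the ATP synthase ring, was at 269, 274 and 351 CPM in Halo-NLS, 305, 254 and 252 CPM in SOX9-mEGFP_spheroid and 226, 186 and 202 CPM in SOX9-Halo_spheroid. It overlapped with the controls in the first and lay below them in the second, and neither difference was called (-0.14 ± 0.17 and -0.54 ± 0.17). Its paralogs Atp5mc3 (-1.29 ± 0.18) and Atp5mc1 (-1.26 ± 0.21) were called lower in SOX9-mEGFP_spheroid.

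Genes that build and feed the chain were read from lists of textbook members, in the order SOX9-Halo_spheroid and SOX9-mEGFP_spheroid against Halo-NLS. In these comparisons 15.3% and 12.1% of all tested genes were called lower, and 13.6% and 15.3% higher. In SOX9-Halo_spheroid the shares called lower among assembly factors, mitochondrial ribosomal proteins and maintenance genes were below that background. Assembly factors had 8 and 11 of 56 tested genes lower and 0 higher in both, with medians of -0.37 and -0.45, led by the complex I factor Ndufaf8 (-1.63 ± 0.27 and -1.70 ± 0.27). Electron carriers and subunits outside the symbol rule had 5 of 22 lower in each and 0 higher, with medians of -0.65 and -0.67. Among them Cyc1, the cytochrome c1 subunit of complex III, was at 728 to 1111 CPM in Halo-NLS and 309 to 481 CPM in the spheroids, and Coq8a, needed for ubiquinone synthesis, was at 79.5 to 151 CPM in Halo-NLS and 2.65 to 5.44 CPM in the spheroids. Neither gene overlapped between controls and spheroids, and Coq8a had the larger fall (-5.26 ± 0.29 and -4.58 ± 0.28, edgeR adjusted p = 5.5e-09 and 3.3e-08).

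Mitochondrial ribosomal proteins, which translate the mitochondrial-encoded subunits, had 7 and 17 of 78 lower and 0 higher (medians -0.46 and -0.70), and tricarboxylic acid cycle and pyruvate dehydrogenase genes 5 of 22 lower in each and 0 higher (medians -0.51 and -0.47). Mdh2, the mitochondrial malate dehydrogenase, was lower in both spheroid groups (-1.92 ± 0.24 and -2.05 ± 0.24) and in SOX9-Halo_budding (-1.09 ± 0.23). Genes for mitochondrial DNA maintenance, transcription and RNA stability had medians of 0.15 and 0.07, with 1 and 4 of 29 lower and 0 higher, among them the mitochondrial RNA polymerase Polrmt in SOX9-mEGFP_spheroid (-1.12 ± 0.26). In SOX9-Halo_budding 1 assembly factor, 3 mitochondrial ribosomal proteins, 1 tricarboxylic acid cycle gene and 0 genes of the carrier and maintenance lists were lower. In SOX9-mEGFP_budding 0 genes of these 5 lists were lower. The backgrounds were 1.26% (SOX9-Halo_budding) and 0.763% (SOX9-mEGFP_budding) of all tested genes.

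Regulators of respiratory gene expression split. Of 17 tested, 6 were lower and 2 higher in SOX9-Halo_spheroid (background 15.3% lower, 13.6% higher). In SOX9-mEGFP_spheroid 4 were lower and 4 higher (background 12.1% lower, 15.3% higher). The share called higher in SOX9-Halo_spheroid was not above background. Ppargc1a (ENSMUSG00000029167, chromosome 5, 51611592 to 51725068, GRCm39), the coactivator PGC-1alpha known to raise respiratory gene expression, was at 1.87, 1.16 and 0.898 CPM in Halo-NLS and at 10.4 to 27.3 CPM in the 12 SOX9 libraries. It was higher in all 4 SOX9 groups, by 3.31 ± 0.35 and 3.60 ± 0.36 on the log2 scale in budding organoids and spheroids of the SOX9-Halo line and by 3.86 ± 0.36 and 3.83 ± 0.36 in those of the SOX9-mEGFP line, with edgeR adjusted p-values from 1.1e-06 to 0.00011. In SOX9-Halo_budding 1 regulator was lower and 2 were higher (background 1.26% lower, 2.49% higher). In SOX9-mEGFP_budding 0 were lower and 1 was higher (background 0.763% lower, 1.99% higher).

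Nuclear receptors of the list differed among themselves. Esrra, the estrogen-related receptor alpha, was at 576, 718 and 759 CPM in Halo-NLS, 202, 168 and 166 CPM in SOX9-mEGFP_spheroid and 273, 328 and 259 CPM in SOX9-Halo_spheroid, without overlap, and fell by 1.94 ± 0.24 and 1.26 ± 0.24 on the log2 scale. Esrrg was at 1.43 to 4.47 CPM in Halo-NLS and 3.98 to 13.6 CPM in the budding organoids, but at most at 2 counts in any spheroid library, at least 28.2-fold below Halo-NLS in SOX9-Halo_spheroid and at least 30.1-fold below it in SOX9-mEGFP_spheroid with the floor of 3 counts per library. Ppard, a lipid-sensing receptor, was at 8.81, 30.6 and 21.2 CPM in SOX9-Halo_budding and 82.6, 89.0 and 95.2 CPM in SOX9-Halo_spheroid, without overlap, and rose by 2.14 ± 0.41 on the log2 scale (edgeR adjusted p = 0.00057). Hnf4a, a receptor that maintains enterocyte genes, fell by 4.61 ± 0.28 in SOX9-Halo_spheroid and 1.36 ± 0.24 in SOX9-mEGFP_spheroid, and that difference between lines held in the test from budding to spheroid (-3.41 ± 0.34, edgeR adjusted p = 9.7e-06).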

How the data were processed

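RNA was extracted with TRIzol, enriched for poly(A), made into NEBNext Ultra II libraries and sequenced as pairs on a NovaSeq X Plus. The authors trimmed reads with cutadapt 4.5, aligned them to mm39 with STAR (keeping reads with a single alignment) and deposited whole-number counts per gene made with HTSeq 2.0.2 (union mode, without strand). Reads without a feature (1.83% to 6.09%) or with an ambiguous one (9.65% to 13.6%) stayed out of the library sizes. Deposited DESeq2 tables of the authors' own comparisons (fold changes and p-values) were not used, and 0 columns of per-sample values were left unused.

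Counts of all 15 libraries (5 groups from the labels) were fitted together with edgeR 4.0.16 in R 4.3.3 (TMM factors, quasi-likelihood test, Benjamini-Hochberg adjustment over 17560 genes passing edgeR's expression filter), a procedure tested on simulated data. Genes were called with a mean normalized count of 10 or more, a 2-fold or larger change and an adjusted p not above 0.01. Totals were 28062722 to 40559766 counts per library. Sums and ratios were compared with exact two-sided permutation tests over libraries. Members and gene lists were chosen with earlier results of these data known. Named genes were the 13 mitochondrial members, complex II, the 2 most abundant nuclear members of each other complex, paralog sets, Atp5if1, up to 3 called members with the largest change in each direction and comparison, and of each list the 2 most abundant and the most changed called genes. Genes outside this rule were named after their values were seen. A gene that the rule names is not reported here.

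Replicate numbers are shared between groups, but the labels do not say whether same-numbered libraries belong together. Deviations of same-numbered libraries correlated above 0.1 in all 3 pairs for 1 of 10 pairs of groups, SOX9-Halo_budding and SOX9-Halo_spheroid (r = 0.367, 0.237 and 0.342), which were therefore also fitted with a replicate block. Alternatives were other scalings, DESeq2 1.42.0, no expression filter, a replicate block, the compared libraries alone, each library left out, a wider threshold and, added after seeing the data, removal of trends on GC content and length. Figures were drawn with matplotlib 3.10.9.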

Additional observations from a re-analysis of the deposited data

Results flagged for a closer look

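For 3 members the SOX9-Halo and SOX9-mEGFP lines differed in their step from budding to spheroid in the interaction test (edgeR, SOX9-Halo minus SOX9-mEGFP, log2 scale), by 1.78 ± 0.33 for Ndufb8, 1.11 ± 0.22 for Cox8a and 1.16 ± 0.27 for Ndufv1 (SE). Adjusted p-values were 0.0018, 0.0029 and 0.0091. All 3 genes lie on chromosome 19, where the median interaction of 650 other tested genes was 0.88, and the part of the chromosome in these values was not tested.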

How the results depend on the processing

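No fold change of a named member called in the main fit changed sign under any alternative run. Medians, ratios and uncalled members were not held to this check, and small ones did change sign. The mean mitochondrial to nuclear ratio was 5.44% (SOX9-Halo_spheroid) and 11.7% (SOX9-mEGFP_spheroid) above Halo-NLS. With the 5 genes outside the copy on chromosome 1 it was 6.98% and 11.0% below. Fewer members were called lower against Halo-NLS with library sizes alone, 11 in SOX9-Halo_spheroid, 22 in SOX9-mEGFP_spheroid and 1 in SOX9-Halo_budding. With an adjusted p of at most 0.05 and no minimum fold, 75, 83, 21 and 19 were lower in SOX9-Halo_spheroid, SOX9-mEGFP_spheroid, SOX9-Halo_budding and SOX9-mEGFP_budding, 27 (2 higher) and 41 from budding to spheroid in the SOX9-Halo and SOX9-mEGFP lines, and 3 lower and 7 higher between the spheroids of both lines, because the threshold is wider. Without the expression filter, 5 were lower in SOX9-Halo_budding, 1 in SOX9-mEGFP_budding, 3 between spheroids, and 1 interaction was called. DESeq2 called 5 in SOX9-Halo_budding and 3 between spheroids. Fitting only the compared libraries gave 0 in SOX9-Halo_budding, 3 between spheroids and 0 between budding organoids. With the GC content trend removed, 1 was lower in SOX9-mEGFP_budding (background 0.678%) and 1 higher from budding to spheroid in the SOX9-Halo line. With GC content and length removed, 27 were lower and 2 higher in SOX9-mEGFP_spheroid, 1 was higher in SOX9-Halo_spheroid, 1 lower in each budding group, 1 lower and 1 higher from budding to spheroid in the SOX9-Halo line, 2 lower in the SOX9-mEGFP line, and 2 higher between spheroids. In the budding groups 0.661% (SOX9-Halo) and 0.735% (SOX9-mEGFP) of all tested genes were lower with both trends removed. Except at the wider threshold, shares of all tested genes were counted under alternatives only for lower genes with trends removed. The cause of the shifts between alternatives was not tested.

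Leaving out each library in turn gave 22 to 39 lower and 0 to 1 higher members in SOX9-Halo_spheroid, 33 to 55 lower in SOX9-mEGFP_spheroid, 3 to 4 lower and 0 to 3 higher in SOX9-Halo_budding, and 0 to 2 lower and 1 to 2 higher in SOX9-mEGFP_budding. From budding to spheroid it gave 4 to 11 lower and 0 to 1 higher in the SOX9-Halo line and 4 to 10 lower in the SOX9-mEGFP line. Between spheroids 1 to 2 were lower, and 1 to 3 interactions were called.

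The replicate block over all libraries gave 29 lower members in SOX9-Halo_spheroid, 45 in SOX9-mEGFP_spheroid and 2 between spheroids. Within the SOX9-Halo line, where same-numbered libraries correlated, the block gave 9 lower members, without mt-Nd4l and with another member in its place. Depth limits Cox6a2, Cox6b2 and mt-Nd4l, with as few as 0, 1 and 3 counts in a library.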
